A study of Mus musculus with 7 samples.

Results

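Exons of 4 genes for actin-binding proteins were followed in the epithelium of the cervical loop of the mouse incisor, a tooth that grows throughout life from progenitors kept at its base. The genes were Flna, Enah, Cttn and Add1, taken by gene name from a table of splicing events as crosslinkers and regulators of actin. Each has 1 event in the table, so there were 4 events among 278, and 4 gene names among 228. All 4 are cassette exons, whole internal exons that a transcript either contains or lacks, of which the table lists 173.

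All 7 libraries came from mice of the genotype K14CreER;Srsf1fl/fl aged 8 to 10 weeks. In these mice a tamoxifen-dependent Cre recombinase under the keratin 14 promoter can act on loxP-flanked Srsf1 in keratin 14-expressing epithelium. The 3 control libraries (numbered 1, 2 and 7) were from mice not given tamoxifen (TAM), and the 4 mutant libraries (3, 4, 5 and 9) from mice given it. Tamoxifen itself and the deletion therefore cannot be told apart. The labels do not say whether each library is a separate animal, so any spread between libraries may be technical. The value for each exon is percent spliced in (PSI), the share of the reads of an event, in percent, that come from the included form. Read numbers behind PSI were not used here, so its depth is unknown and no counting interval can be given.

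Actin filaments give epithelial cells their shape and their contact with neighbours. Filamins crosslink filaments into networks and tie them to membrane receptors. Enah (also called Mena) extends filaments at their growing ends. Cortactin, the product of Cttn, binds filaments through a series of tandem repeats and stabilises branches made by the Arp2/3 complex. Alpha-adducin, the product of Add1, caps filaments and joins them to the spectrin skeleton under the membrane. Genes of this group carry alternative exons that differ between epithelial and other cells, of which the Enah exon known as 11a is the textbook case. SRSF1, the deleted factor, belongs to the SR proteins, which contact exon sequences and commonly favour their use.

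The 3 coding exons are printed as they join their neighbours, because the printed letters are what the included and the skipped transcript differ by. Sequences are from GENCODE M21 transcripts (GRCm38), 5′ to 3′ on the transcribed strand. Capitals mark the alternative exon, and lower case marks 30 bases of the exon on each side.
Flna included: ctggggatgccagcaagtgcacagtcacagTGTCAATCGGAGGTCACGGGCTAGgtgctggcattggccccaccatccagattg
Flna skipped: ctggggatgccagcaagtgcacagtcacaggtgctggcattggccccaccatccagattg
Enah included: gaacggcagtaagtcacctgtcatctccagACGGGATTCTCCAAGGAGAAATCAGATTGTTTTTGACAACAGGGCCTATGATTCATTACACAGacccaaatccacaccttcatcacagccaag
Enah skipped: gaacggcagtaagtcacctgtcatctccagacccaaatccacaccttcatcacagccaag
Cttn included: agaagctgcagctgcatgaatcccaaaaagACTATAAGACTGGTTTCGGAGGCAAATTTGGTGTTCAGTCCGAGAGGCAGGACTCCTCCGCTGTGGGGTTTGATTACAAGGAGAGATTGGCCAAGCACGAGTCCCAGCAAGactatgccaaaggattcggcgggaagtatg
Cttn skipped: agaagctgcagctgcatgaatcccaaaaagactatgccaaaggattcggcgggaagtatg

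In every pair the reading frame continued past the junction in both forms. The exons are 24 nucleotides long in Flna, 63 in Enah and 111 in Cttn, each a multiple of 3, and none puts a stop codon into the frame. The fourth exon, in Add1, is 279 nucleotides long and lies in the 5′ untranslated region, so its letters are not printed. A length divisible by 3 was common in the whole table (59.0% of 173 listed cassette exons, against 40.4% of 180116 internal exons of protein-coding transcripts in M21).

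In all 4 exons the mean PSI was lower in the mutant libraries. The differences of means were −19.6 percentage points in Flna (limma SE 4.01), −12.3 in Enah (SE 3.42), −13.5 in Cttn (SE 2.43) and −5.00 in Add1 (SE 1.68). All 4 were past an adjusted p of 0.05 in the limma fit, as were 95.7% of all 278 events. Among the listed cassette exons, 82.7% were past it with a lower PSI. In 3 of the 4 every mutant library lay below every control library, as in 80.3% of the listed cassette exons. Nothing is read from these counts, because the table was selected on the same contrast and the genes were taken from it. The values that put them there were the DRIMSeq corrected p-values of the authors' deposited table, DRIMSeq being a test of isoform proportions. In the authors' deposited table these were 0.00104 for Flna, 0.00624 for Cttn, 0.0446 for Enah and 0.0817 for Add1, where every listed event is below 0.1 and the largest value is 0.0979. Their JuncBASE corrected p-values in the authors' deposited table ran from 0.217 to 0.353.

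**Figure D1:**
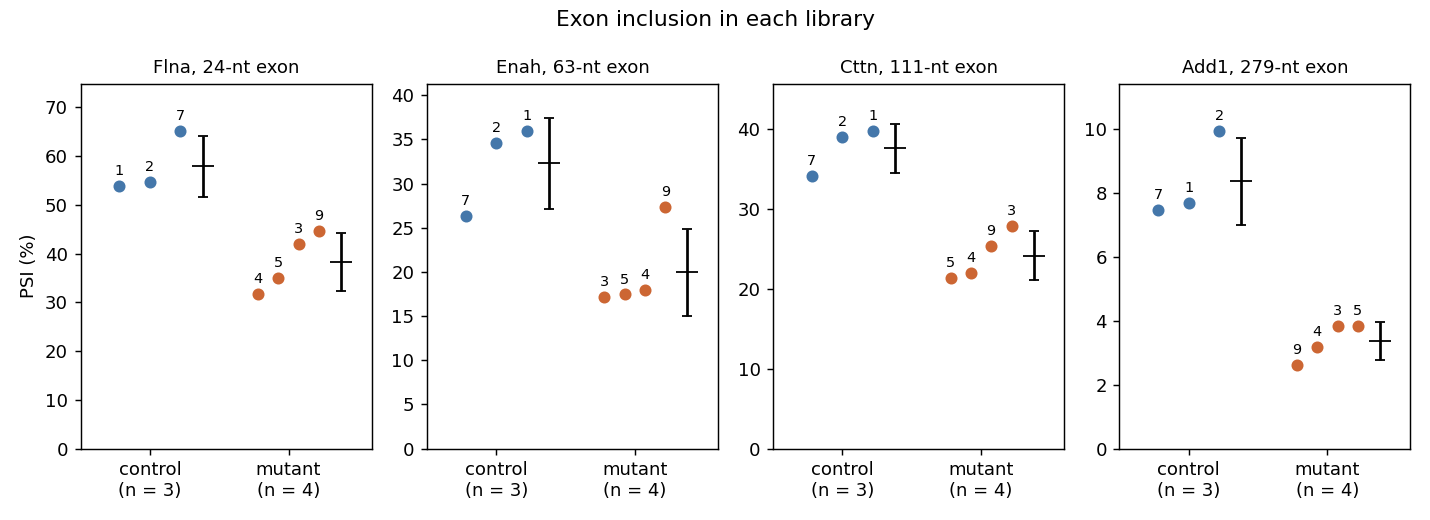
PSI in percent (vertical axes, from 0, with a different range in each panel) of the 4 exons in each of the 3 control and 4 mutant libraries. Points are single libraries labelled by their number and ordered by value within a group, and the black bars give the mean ± SD. Mutant library 9 lies within the control range for Enah, and the groups are separate in the other 3 panels.

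Flna, the X-linked gene for filamin A, was the crosslinker of the group. Its exon lies on chromosome X from 74232967 to 74232990 (minus strand; ENSMUSG00000031328.15) and is exon 29 of 47 in the transcript Flna-201. It is short, tied as the second shortest of the 173 listed cassette exons. PSI was 53.95%, 54.63% and 65.10% in control libraries 1, 2 and 7. It was 41.96%, 31.67%, 34.97% and 44.58% in mutant libraries 3, 4, 5 and 9. Every mutant value was thus below every control value, with a gap of 9.37 points between the groups, and control 7 stood above the other two controls. The group means were 57.9% ± 6.25 (SD, n = 3) and 38.3% ± 5.997 (SD, n = 4), so the majority form changed from the longer to the shorter one. The exon's bases fall in codons 1649 to 1657 of 2647, and skipping it removes 8 codons (2639 in Flna-202). That place is in the rod of filamin A, which is built of immunoglobulin-like repeats and interrupted by flexible hinges. M21 has 2 transcripts with the exon, 1 of them annotated for nonsense-mediated decay, and 4 that join its neighbours directly. The intron before the exon is 158 nucleotides long and the one after it 2213.

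Short exons were rare in the table: 3 of the 173 listed cassette exons had at most 27 nucleotides, in Flna, Hnrnpa2b1 and Mapk8ip3. All 3 had a lower mean PSI in the mutants, with differences of −19.6 points in Flna, −18.2 in Hnrnpa2b1 and −9.52 in Mapk8ip3. A lower mutant mean was found for 147 of the 173 listed cassette exons (85.0%), so the direction of these 3 is that of most of the table. These exons were picked by length after their values were known, and no test was made of them.

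Enah, a member of the Ena/VASP family of elongation factors, had its exon on chromosome 1 from 181911597 to 181911659 (minus strand; ENSMUSG00000022995.16). It is exon 13 of 16 in Enah-202, the single M21 transcript with it, while 8 transcripts skip it, 7 of them protein-coding. PSI was 35.93%, 34.59% and 26.36% in control libraries 1, 2 and 7, and 17.14%, 17.95%, 17.45% and 27.33% in mutant libraries 3, 4, 5 and 9. Mutants 3, 4 and 5 lay within 1 point of each other and below all controls. Mutant 9 lay above control 7, by 0.97 points, so the groups overlapped. The means were 32.3% ± 5.18 (SD, n = 3) and 19.97% ± 4.92 (SD, n = 4). The skipped form was thus the majority form in every library of both groups. The exon adds 21 codons in codons 484 to 505 of 562, near the carboxyl end (86.1% of the way along the coding sequence), where Ena/VASP proteins carry the EVH2 domain that binds actin and forms tetramers. Its length and place are those of the epithelial exon 11a. Cre is driven in the epithelium, but PSI from tissue mixes the cells in it: a shift of cell types and a change of splicing within cells cannot be told apart. None of the 15 epithelial, 12 mesenchymal and 8 blood and endothelial marker genes examined has a listed event, and PSI gives no expression level, so the part of cell composition in the Enah result was not tested.

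Cttn, the cortactin gene, had its exon on chromosome 7 from 144450978 to 144451088 (minus strand; ENSMUSG00000031078.15), exon 11 of 18 in Cttn-202. PSI was 39.70%, 39.00% and 34.08% in control libraries 1, 2 and 7. In mutant libraries 3, 4, 5 and 9 it was 27.82%, 21.97%, 21.31% and 25.37%. The groups were separate by 6.26 points, and the spread was alike in both (37.6% ± 3.06, SD, n = 3, and 24.1% ± 3.04, SD, n = 4). As for Enah, the skipped form was the majority form in all 7 libraries. The exon covers codons 264 to 301 of 546, in the middle of the coding sequence, and removing it takes out 37 codons (509 in Cttn-201).

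The Cttn exon belongs to the stretch that encodes the actin-binding repeats. Of the 18 exons of Cttn-202, 5 have exactly 111 nucleotides: exons 6, 8, 9, 10 and 11. Without gaps, exon 11 was identical to exon 8 at 64.0% of bases, to exon 10 at 63.1%, to exon 9 at 60.4% and to exon 6 at 27.03%. The exons were compared base by base from their first base. Exon 6 holds a stretch like the early part of exon 11 but nearer its end, so its low value does not mean that it lacks the repeat. Exons 10 and 11 are printed to show this repeat, with capitals in exon 10 at the 70 of 111 bases where it has the same base as exon 11.
Cttn exon 10: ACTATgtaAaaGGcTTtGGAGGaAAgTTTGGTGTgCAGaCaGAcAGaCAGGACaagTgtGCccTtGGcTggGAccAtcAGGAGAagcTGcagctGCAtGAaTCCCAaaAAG
Cttn exon 11: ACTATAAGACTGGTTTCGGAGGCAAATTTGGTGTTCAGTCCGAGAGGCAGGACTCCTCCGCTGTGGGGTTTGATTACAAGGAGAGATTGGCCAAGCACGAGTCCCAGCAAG
Skipping exon 11 therefore shortens the tandem array by a unit of the length that its neighbour exon 10 also has. The Cttn event counts reads over exon 10 as well as past it. Its inclusion junctions join exon 11 to exon 12 and to either exon 10 or exon 9, and its exclusion junctions join exon 12 to exon 10 or exon 9. The 2 junctions that use exon 9, and so leave out exon 10, are not introns in M21, whereas the other 12 of the 14 junctions of the 4 events are. PSI of the Cttn event is thus the inclusion of exon 11 whether or not exon 10 is present, and how often exon 10 was skipped was not analysed here.

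**Figure D2:**
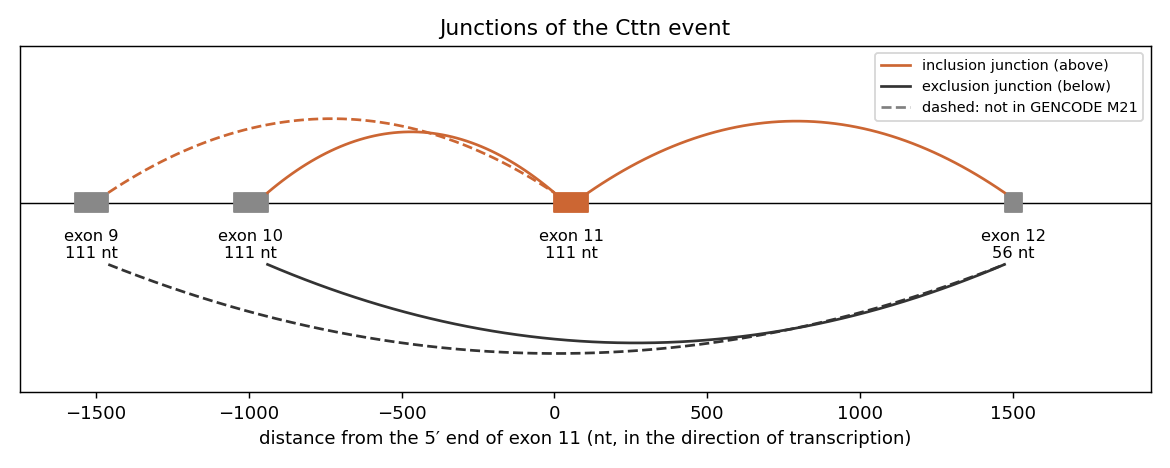
Exons 9 to 12 of Cttn as boxes, to scale, by distance in nucleotides from the 5′ end of exon 11 in the direction of transcription. Curves above the line are the junctions counted as inclusion of exon 11 and curves below it those counted as exclusion. Dashed curves are the 2 junctions that join exon 9 past exon 10 and are not in M21. Curve heights carry no value.

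**Figure D3:**
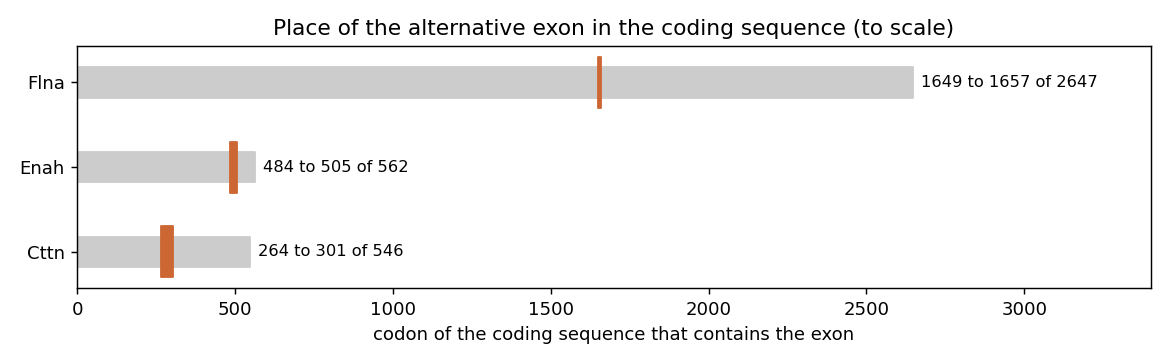
Coding sequences of Flna-201, Enah-202 and Cttn-202 as grey bars drawn to scale in codons (horizontal axis), with the alternative exon in orange. The exon takes up codons 1649 to 1657 of 2647 in Flna, 484 to 505 of 562 in Enah and 264 to 301 of 546 in Cttn.

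Add1, which encodes alpha-adducin, differed from the other 3 in where its exon lies and how seldom it was used. The exon is on chromosome 5 from 34598169 to 34598447 (plus strand; ENSMUSG00000029106.14) and is exon 2 of 5 in the M21 transcript that holds it. The annotated start codon of that transcript begins after 20 bases of exon 3, so the exon lies wholly before its annotated coding sequence. The junctions of both forms enter exon 3 at the same base, ahead of that start codon. PSI was 7.69%, 9.93% and 7.47% in control libraries 1, 2 and 7. It was 3.83%, 3.17%, 3.83% and 2.61% in mutant libraries 3, 4, 5 and 9. The groups were separate by 3.64 points (8.36% ± 1.36, SD, n = 3, and 3.36% ± 0.589, SD, n = 4). With the lowest control level of the 4, the Add1 exon had the smallest difference in points and the largest fall in proportion. Without control library 1 or control library 2 the Add1 event no longer passed the limma test, with differences of −5.34 and −4.22 points against −5.00 with all libraries. The limma SE was 2.22 and 2.06 in these fits, against 1.68 with all libraries, so without control 1 the difference was larger and the SE rose. This SE also draws on the variance of the other listed events, and not on the Add1 libraries alone. The residual SD of Add1 itself was 0.974 points, against 3.05 to 6.10 in Flna, Enah and Cttn. With all libraries its SE was 1.36 under the trended variance prior and 1.71 under the robust one. How far the loss of Add1 rests on the shared variance was not tested.

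Letters of the Add1 exon were read for features that a leader exon can carry. It holds 5 ATG triplets, and each is followed in its own frame by a stop codon within the exon. Whether any of them is translated was not measured. M21 joins the exons on either side of it directly in 4 transcripts. A shorter version of the exon, of 178 nucleotides from 34598270 to the same end, is annotated in a different transcript. No junction of the listed event enters at its start. The inclusion junction from 34598448 to 34601323 begins directly after the shared end, so it cannot tell the shorter version from the listed exon. Reads of the shorter version may therefore count as inclusion in the Add1 PSI, and their share was not tested. The intron before the listed Add1 exon is 24255 nucleotides long, against 158 in Flna, 938 in Cttn and 1647 in Enah.

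Sizes of the 4 differences were set beside those of the other cassette exons in the table. By absolute difference of medians, Enah (16.89 points) ranked 52nd, Flna (16.16) 59th, Cttn (15.33) 66th and Add1 (4.19) 169th of 173, where the median was 13.35 points. As a share of the control mean, the mutant mean PSI was 66.1% for Flna, 61.8% for Enah, 64.2% for Cttn and 40.2% for Add1. By medians in place of means these shares were 70.4%, 51.2%, 60.7% and 45.5%, so Add1 was the lowest either way, and the closeness of the other 3 held for means only. By means, Add1 had the 8th lowest such share among the 173, and the other 3 ranked from 32nd to 35th.

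**Figure D4:**
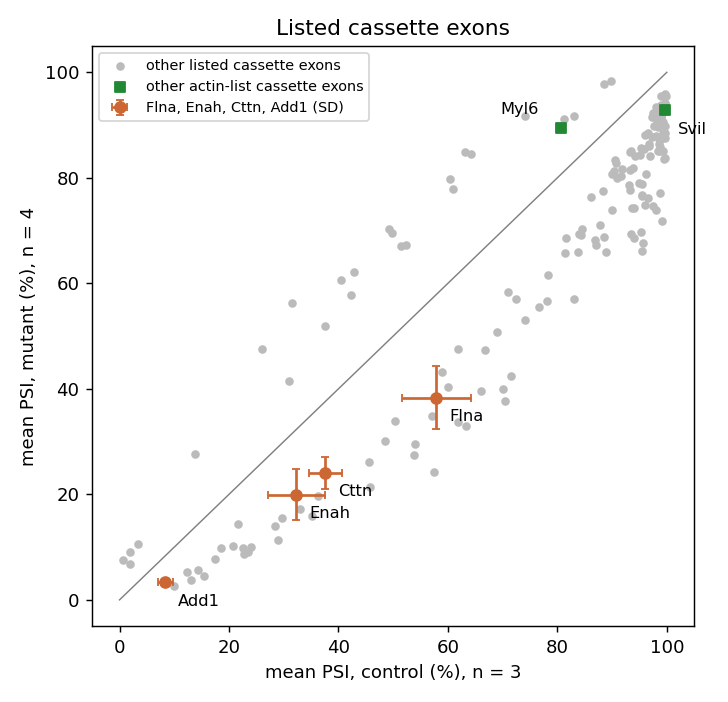
Mean PSI in percent of the 173 listed cassette exons in control (horizontal axis, n = 3) and mutant libraries (vertical axis, n = 4). Flna, Enah, Cttn and Add1 are orange with SD bars and lie below the line of equal values. Green squares are the cassette exons of Myl6, above the line, and Svil, below it.

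The order of the mutant libraries differed between the 4 exons. Mutant 9 was nearest to the controls in Flna (77.0% of the control mean) and Enah (84.6%), and farthest from them in Add1 (31.2%). Mutant 3 was nearest in Cttn (74.0%). Mutants 4 and 5 were the lowest pair in Flna (54.7% and 60.4%) and in Cttn (58.4% and 56.7%). Over the 147 listed cassette exons with a lower mutant mean, mutant 9 was the nearest to the controls in 49.0% and mutant 4 in 8.84%. The median difference from the control mean over those exons was −9.94 points in mutant 9, −11.7 in mutant 3, −13.8 in mutant 5 and −15.8 in mutant 4.

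**Figure D5:**
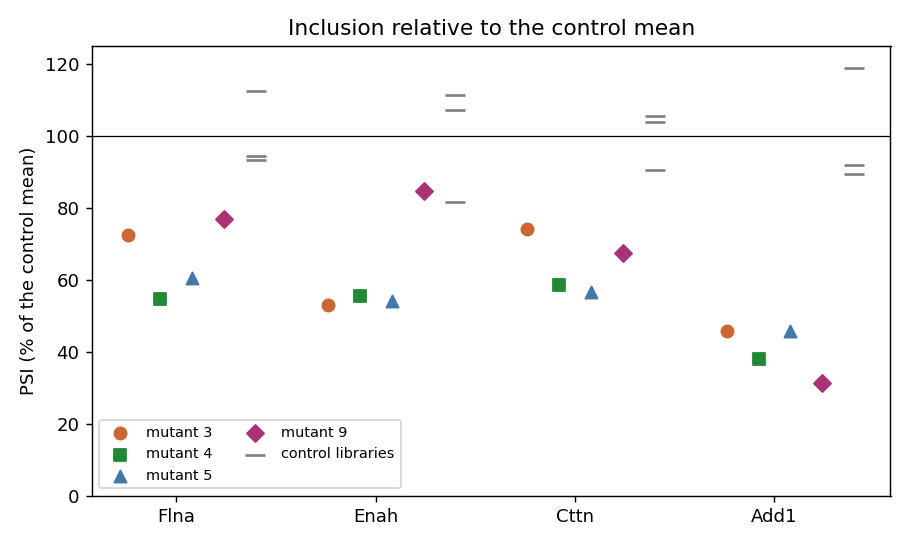
PSI of each exon as a percent of its control mean (vertical axis, from 0) in each mutant library, with the 3 control libraries as grey dashes and the control mean as a line at 100. Mutant 9 is at 84.6 for Enah, within the control values, and at 31.2 for Add1, the lowest point of the plot.

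The labels were checked on the targeted gene. The listed Srsf1 event, in which the first exon is joined past all later Srsf1 exons, had PSI of 5.83% to 10.07% in the controls and 44.74% to 85.52% in the mutants. Mutant 4 had the lowest value of this event among the mutants (44.74%) and mutant 5 the highest (85.52%), mutant 9 being at 55.83% and mutant 3 at 65.60%. The lowest PSI was in mutant 4 for Flna, mutant 3 for Enah, mutant 5 for Cttn and mutant 9 for Add1, so a different library was lowest for each exon. The next lowest mutant was close in Enah (17.14% and 17.45%), Cttn (21.31% and 21.97%) and Add1 (2.61% and 3.17%). With depth unknown, these orders may be noise, and 4 mutants are too few for a correlation.

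Other genes of the actin cytoskeleton were taken from 7 lists with 187 genes in all, which include the 4 described. In these lists 7 genes had listed events, 8 events in all; the lists do not cover every actin-related gene of the table, so the balance of directions is that of these genes only. Of the 8 events, 7 were past the limma threshold with lower and 1 with higher values in the mutants. Lower values past the threshold were found for 78.8% of all listed events, and nothing is read from the comparison. The median difference of medians over the 8 was −10.8 points, against −11.3 over all 278 events. Besides the 4 they were Ank3, Svil and Myl6. An alternative 3′ splice site of Ank3, which encodes the membrane adaptor ankyrin-G, was lower (63.3% ± 2.09, SD, n = 3, and 38% ± 6.74, SD, n = 4). Inclusion was also lower in Svil, for the membrane-linked actin binder supervillin, where a cassette exon was at 99.7% ± 0.595 (SD, n = 3) and 92.8% ± 2.91 (SD, n = 4). The second Svil event shares that exon. In Myl6, for a light chain of nonmuscle myosin, a cassette exon was higher (80.8% ± 3.58, SD, n = 3, and 89.4% ± 1.42, SD, n = 4). The 33 genes of focal adhesions and junctions and the 12 epithelial splicing regulators and companion exons had no listed event. Genes without a listed event cannot be called unchanged, because the table is a selected one.

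The exons were also searched on the transcribed strand for purine-rich letters of the kind that SRSF1 is known to bind. The motifs were the triplet GGA, the pentamer GGAGA, the hexamer GAAGAA and, as a variant of it, the hexamer GAAGGA. The triplet is contained in the pentamer and in the last of these. GGA occurred once in the Flna exon, 2 times in Enah, 3 times in Cttn and 6 times in Add1. Among internal exons of protein-coding M21 transcripts with exactly the same length, GGA was found in 51.0% for the length of Flna (200 exons), 81.2% for Enah (1095), 92.7% for Cttn (1560) and 99.3% for Add1 (151). At least as many matches as in the member exon were found in 51.0%, 47.7%, 50.6% and 59.6% of them. GGAGA occurred once in Enah and once in Cttn, where 18.7% and 23.4% of exons of the same length held it, and was not found in Flna or Add1. The hexamers had no match in any of the 4 exons. GAAGAA was in 9.83% of the 173 listed cassette exons, and its variant GAAGGA in 12.7% of them.

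Cassette exons with the most similar PSI over the 7 libraries were found by the mean absolute difference from each of the 4. For Flna they were in Hnrnpd (5.09 points) and Fopnl (5.54), and for Enah in Dnm1l (3.65) and Gtf2ird1 (3.66). For Cttn they were in Dnm1l (4.36) and Picalm (4.57), and for Add1 in Adgrl2 (1.40) and Fubp1 (2.72). This likeness describes levels in these libraries only.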

How the data were processed

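Total RNA was sequenced after Illumina TruSeq preparation, per the labels' protocols. The submitters' processing notes name mm9 and the tools TopHat, Bowtie, DESeq and SAMtools, without versions; the series text names JuncBASE for events. The authors deposited PSI as a percent per library, and a difference of group medians, recorded here as a score in points, per the file headers. The authors deposited raw and corrected p-values of JuncBASE and DRIMSeq, per the file headers. Of the 14 junctions of the 4 events, 12 are introns of GENCODE M21 (GRCm38), so coordinates were read as GRCm38. After a shift of 1000 bases 0 matched, but such a shift would rarely meet another intron, so nothing is read from it. An mm9 annotation was not compared.

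Groups and replicate numbers came from the sample titles, and the number of library columns not used was 0. PSI was fitted with limma 3.58.1 in R 4.3.3 over all 278 events, with Benjamini-Hochberg adjustment at 0.05. The fit was tested on 20 simulated data sets in which 100 of the 278 events were shifted by 15 points. It called 84.3% of the shifted and 1.85% of the unchanged events. A shift as small as that of Add1, or a table in which most events differ, was not simulated. Exon features were computed with Python 3.11.15 and pandas 2.3.3. All member events were named, with every actin-list event (at most 3 per list) and the 2 most similar genes per exon. The members, lists and motifs were chosen with earlier results of these data known. Alternatives were a logit scale, medians, 2 other variance priors, a threshold of 0.01 and leaving out each library. Protein sequences were not used here, and some results on other actin-related genes are not reported here.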

Additional observations from a re-analysis of the deposited data

Results flagged for a closer look

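Among the 8 actin-list events, the 4 mutant libraries were examined for a value far from the other 3. In 2 events the library that stood apart was mutant 9. Its Enah PSI was 27.33%, with a gap to the nearest mutant of 0.921 of the group's range. Its Ank3 value was 48.00%, with a gap of 0.834 of the range. Both gaps exceed Dixon's critical value for 4 samples at the usual level, and chance marks about 1 in 20 groups. Both values lay on the side of the controls, and their cause was not tested. Without mutant 9 the Enah difference was −14.8 points, against −12.3 with all libraries.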

How the results depend on the processing

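The 36 alternative values of the 4 PSI differences (logit scale, medians and each of 7 libraries left out) kept their sign. All moved by less than 1 residual SD of the full fit. In groups of 3 and 4, leaving out 1 library cannot move a difference further than that, so nothing is read from this bound. By medians the Enah difference was −16.9 points, against −12.3 by means, with a residual SD of 5.03. The trended and the robust prior change the SE alone and bear only on the count of calls. Leaving out single libraries, the differences ran from −21.7 to −16.0 points in Flna, −15.3 to −10.5 in Enah, −15.2 to −12.4 in Cttn and −5.45 to −4.22 in Add1. The count past the limma threshold was 4 with all libraries and ran from 3 to 4 with single libraries left out. It was 3 without control 1 or control 2, or at an adjusted p of 0.01, and in each case Add1 was lost. No paired analysis was possible because the control and mutant libraries share no replicate number. As a share of the control level by medians in place of means, a setting added after seeing the data, Enah was at 51.2% and Add1 at 45.5%. Depth per event is unknown, so no counting error can be given for the low PSI values of Add1. The 4 motifs are each reported on their own.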
